A study of Mus musculus with 8 samples.

Results

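Lyz1 and Lyz2, the lysozyme genes of the mouse, were followed in sorted tumour neutrophils by mRNA sequencing. They were taken by gene name from the deposited count table and are 2 of its 54532 genes. Both passed the filter on low counts, as did 14051 genes in all. They were chosen by their counts in these same libraries, with the difference between the fractions already known, so their levels are given as a description and without a test. Libraries of ICAM1high neutrophils (n = 4) were compared with libraries of ICAM1low neutrophils (n = 4). ICAM1 (CD54) is a cell surface protein that integrins of leukocytes bind. All 8 libraries came from untreated Balb/c mice that had received 2208L mammary tumour cells in the mammary fat pad, and the tumours were dissociated at a diameter of 1 cm. The labels do not state genotype, age, the other antibodies of the sort or the number of mice behind a library. Total counts were 10328575 to 20625309 in ICAM1high and 16768777 to 22751975 in ICAM1low. A transcript of the labelled cell type was found in both fractions: Csf3r, the receptor for granulocyte colony-stimulating factor, was at 2704 ± 208 CPM in ICAM1high and 7500 ± 750 CPM in ICAM1low (CPM, counts scaled to library totals after TMM normalization, SD, n = 4 each). The level of 1 gene in bulk libraries does not give the share of neutrophils. Ly6g, the classical surface marker of mouse neutrophils, was low in both, at 3.78 ± 1.89 CPM in ICAM1high and 35.0 ± 29.8 CPM in ICAM1low.

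Lysozyme is a secreted enzyme that cuts the sugar chains of bacterial peptidoglycan. In the mouse the gene is duplicated. Lyz2, or lysozyme M, is the myeloid copy, made by macrophages, monocytes and neutrophils, and neutrophils store the protein in granules; its locus drives Cre in the widely used LysM-Cre strain, which acts in macrophages and neutrophils alike. Lyz1, or lysozyme P, is best known from the Paneth cells of the small intestine.

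The genes lie side by side on the minus strand of chromosome 10 of mm10. Lyz2 (ENSMUSG00000069516) spans 117277331 to 117282321 and Lyz1 (ENSMUSG00000069515) spans 117287797 to 117292868, with 5475 bases between them, and neither overlaps another gene of the table. In GENCODE M21 (GRCm38, the assembly of mm10) each has 1 transcript of 4 exons, with 79 bases of 5′ UTR, 447 coding bases with the stop codon and 790 bases of 3′ UTR in Lyz2, against 30, 447 and 786 bases in Lyz1. Over the aligned transcript 96.0% of bases were identical, and 22 of the 447 coding bases differed. Those differences decide how far a read can be assigned to either gene. Coding bases 61 to 120, counted from the A of the start codon, hold the most differences of any stretch of 60 coding bases. They are shown with the 9 differing bases in capitals.
Lyz1: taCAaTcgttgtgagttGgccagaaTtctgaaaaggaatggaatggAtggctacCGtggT
Lyz2: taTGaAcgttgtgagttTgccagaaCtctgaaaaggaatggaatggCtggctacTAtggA
The longest coding stretch without a difference, bases 276 to 393, is 118 bases long, and a read that lies within it fits both genes equally.
Lyz1 and Lyz2: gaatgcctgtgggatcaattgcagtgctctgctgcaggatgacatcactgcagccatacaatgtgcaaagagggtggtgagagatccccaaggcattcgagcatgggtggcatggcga
Of the 1217 windows of 100 bases in the Lyz2 transcript, 24 (1.97%) also occur in Lyz1, and 99 (8.13%) differ from a Lyz1 window at no more than 1 base. For windows of 50 bases these shares were 15.4% and 42.3%. For windows of 150 bases they were 0 of 1167 and 0.77%. The sources used here state neither the read length nor how reads that map to both genes were treated.

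The promoters are shown because the genes are neighbours that were both higher in ICAM1high. The sequences are RefSeq's for GRCm38.p6, from 250 to 51 bases before the RefSeq start, on the minus strand, with capitals for bases that differ from or have no partner in the other gene's promoter in a gapped alignment. RefSeq starts Lyz2 at 117282272, within the first GENCODE exon of the gene.
Lyz1 (chr10:117292919-117293118): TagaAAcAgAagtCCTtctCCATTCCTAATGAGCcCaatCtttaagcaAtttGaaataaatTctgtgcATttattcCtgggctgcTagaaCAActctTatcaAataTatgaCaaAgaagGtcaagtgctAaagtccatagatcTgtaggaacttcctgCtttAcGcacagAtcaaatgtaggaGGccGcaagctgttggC
Lyz2 (chr10:117282323-117282522): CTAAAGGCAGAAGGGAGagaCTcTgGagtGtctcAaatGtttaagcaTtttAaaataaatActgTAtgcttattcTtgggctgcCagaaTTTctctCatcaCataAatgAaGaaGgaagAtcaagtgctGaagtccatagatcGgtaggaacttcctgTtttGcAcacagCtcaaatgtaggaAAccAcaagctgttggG
The 50 bases next to the start were identical in both genes, and identity over the 250 bases before the start of Lyz2 was 79.6%. Both promoters held AGGAAG, a core of sites for ETS factors such as PU.1, on the opposite strand at -99 to -94. Lyz2 held a second copy at -137 to -132. At least 1 copy on either strand was present in 29.5% of the 32851 promoters of the same length. The RUNX motif AACCACA was found in the Lyz2 window, at -67 to -61, and these letters were not found in the Lyz1 window, against 4.4% of all promoters. The C/EBP motif TTNNGNAAT was found in the Lyz1 window, at -209 to -201, and not in that of Lyz2, against 10.2% of all. On both strands, neither window held the E-box CACGTG of MITF and TFE factors (6.0% of all promoters), the M-box TCATGTG of MITF (3.3%) or the TATA box TATAAA (12.4%). No matches overlapped.

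Lyz2 was among the most abundant transcripts of the ICAM1high fraction. Its level in ICAM1high replicates 1 to 4 was 3604, 2458, 2604 and 2123 CPM, against 447, 603, 591 and 1095 CPM in ICAM1low replicates 1 to 4. The lowest ICAM1high library was thus above the highest ICAM1low library. As for Lyz1 below, this describes a gene chosen with the difference known. How many of all tested genes had groups without overlap was not counted. Of all tested genes, 42.1% rose or fell (edgeR quasi-likelihood test, adjusted p under 0.05). Behind these levels stood 87591, 57721, 53945 and 27846 counts in ICAM1high and 6098, 9861, 10278 and 17552 counts in ICAM1low, so counting error was small beside the spread between libraries. Means were 2697 ± 637 CPM in ICAM1high and 684 ± 283 CPM in ICAM1low (SD, n = 4 each), a fitted log2 fold change of 1.98 (SE 0.29), or 3.94-fold. By CPM the gene ranked 16, 17, 20 and 30 among all genes of the ICAM1high libraries, and 496, 311, 359 and 191 in the ICAM1low libraries. It made up 0.339 ± 0.0640% of all counts in ICAM1high and 0.0529 ± 0.0174% in ICAM1low. In bulk libraries of sorted cells, a larger share of cells that express a gene and more transcript per cell cannot be told apart.

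**Figure D1:**
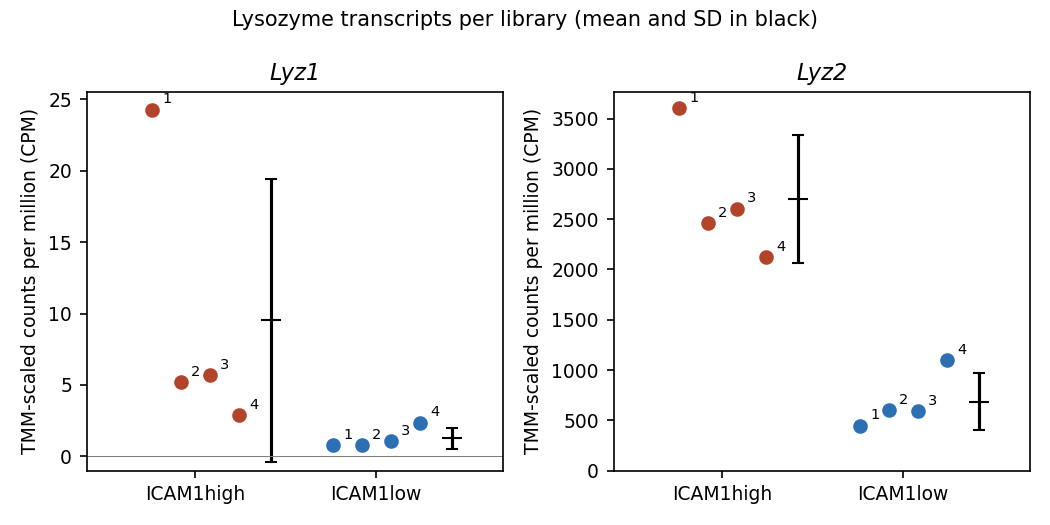
Level of Lyz1 (left) and Lyz2 (right) in CPM in each library, with replicate numbers beside the points and the mean and SD of 4 libraries in black. ICAM1high replicate 1 had the highest level of both genes, at 24.3 CPM for Lyz1 and 3604 CPM for Lyz2, and ICAM1low replicate 4 was the highest of its group for both.

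Lyz1 was a minor transcript throughout. It had 590, 122, 118 and 38 counts in ICAM1high replicates 1 to 4 and 11, 13, 19 and 38 counts in ICAM1low replicates 1 to 4. On the scaled level this was 24.3, 5.19, 5.70 and 2.90 CPM in ICAM1high, against 0.807, 0.795, 1.09 and 2.37 CPM in ICAM1low. The groups did not overlap in CPM, but ICAM1high replicate 4 and ICAM1low replicate 4, with the same count from libraries of different depth, were close. Means were 9.52 ± 9.91 CPM in ICAM1high and 1.27 ± 0.749 CPM in ICAM1low (SD, n = 4 each), and the SD in ICAM1high exceeded the mean. The fitted log2 fold change was 2.91 (SE 0.68). That value rested on ICAM1high replicate 1: without it the log2 fold change was 1.82 (SE 0.47), while that of Lyz2 was 1.77 (SE 0.28). Per kilobase of the deposited gene length, Lyz2 exceeded Lyz1 142 to 703 times in ICAM1high libraries and 443 to 728 times in ICAM1low libraries.

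Lyz1 made up a similar small share of the lysozyme counts in 7 of the 8 libraries. The share of Lyz1 in the sum of both genes was 0.669%, 0.211%, 0.218% and 0.136% in ICAM1high replicates 1 to 4, against 0.180%, 0.132%, 0.185% and 0.216% in ICAM1low replicates 1 to 4. The exact (Clopper-Pearson) 95% interval of ICAM1high replicate 1, 0.616 to 0.725%, lay above those of the other 7 libraries, whose highest bound was 0.322%. These intervals cover counting error only. At 0.185%, the median share of the other 7 libraries, ICAM1high replicate 1 would have had 163 Lyz1 counts in place of 590. Without that library the mean share was 0.188 ± 0.0454% in ICAM1high (SD, n = 3) and 0.178 ± 0.0348% in ICAM1low (SD, n = 4), a difference smaller than either SD. Shares of this size stand beside the sequence overlap given above, in which 8.13% of the 100-base windows of Lyz2 come within 1 base of Lyz1, and how many Lyz1 counts are reads of Lyz2 was not tested. The reference sequence is that of C57BL/6J and the mice were Balb/c, and differences between the strains at these genes were not examined.

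**Figure D2:**
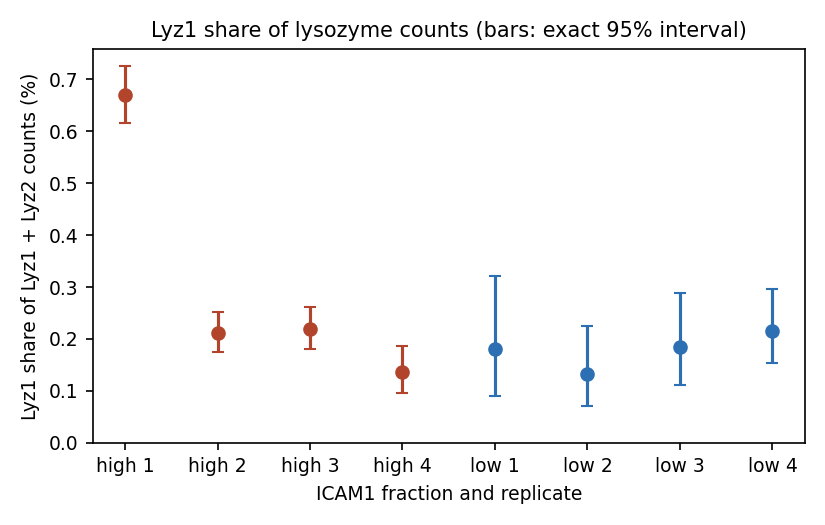
Share of Lyz1 in the summed Lyz1 and Lyz2 counts of each library, in percent, with exact 95% intervals that cover counting error only. ICAM1high replicate 1 is at 0.669%, and the other 7 libraries lie between 0.132% and 0.218%.

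The size of the difference between the fractions varied for both lysozyme genes. The groups did not overlap in CPM, so any pairing of libraries would put both genes higher in ICAM1high. This describes genes chosen with the difference known. Between same-numbered libraries, Lyz2 was 8.05, 4.08, 4.40 and 1.94 times higher in ICAM1high for numbers 1 to 4, and Lyz1 was 30.1, 6.53, 5.21 and 1.22 times higher. Library names fall into 2 runs of numbers, and the log2 fold change of Lyz2 was 2.53 (SE 0.35) in replicates 1 and 2 alone and 1.43 (SE 0.36) in replicates 3 and 4 alone. For Lyz1 it was 4.19 (SE 0.70) and 1.27 (SE 0.62). ICAM1high replicate 1 and ICAM1low replicate 4, each with the highest Lyz2 level of its group, also had the most counts in genes of up to 1000 bases. That share was 5.88% in ICAM1high replicate 1 against 3.47 to 3.65% in the other ICAM1high libraries, and 11.2% in ICAM1low replicate 4 against 4.68 to 6.42% in the other ICAM1low libraries. Without both libraries the log2 fold change was 2.10 (SE 0.16) for Lyz2 and 2.32 (SE 0.37) for Lyz1, so the difference was as large without them for Lyz2. Scaling moved both genes with the rest of the transcriptome: under library totals alone Lyz2 was at 2.68 and Lyz1 at 3.58, and the median of all tested genes shifted to 0.76 from 0.08 with TMM.

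**Figure D3:**
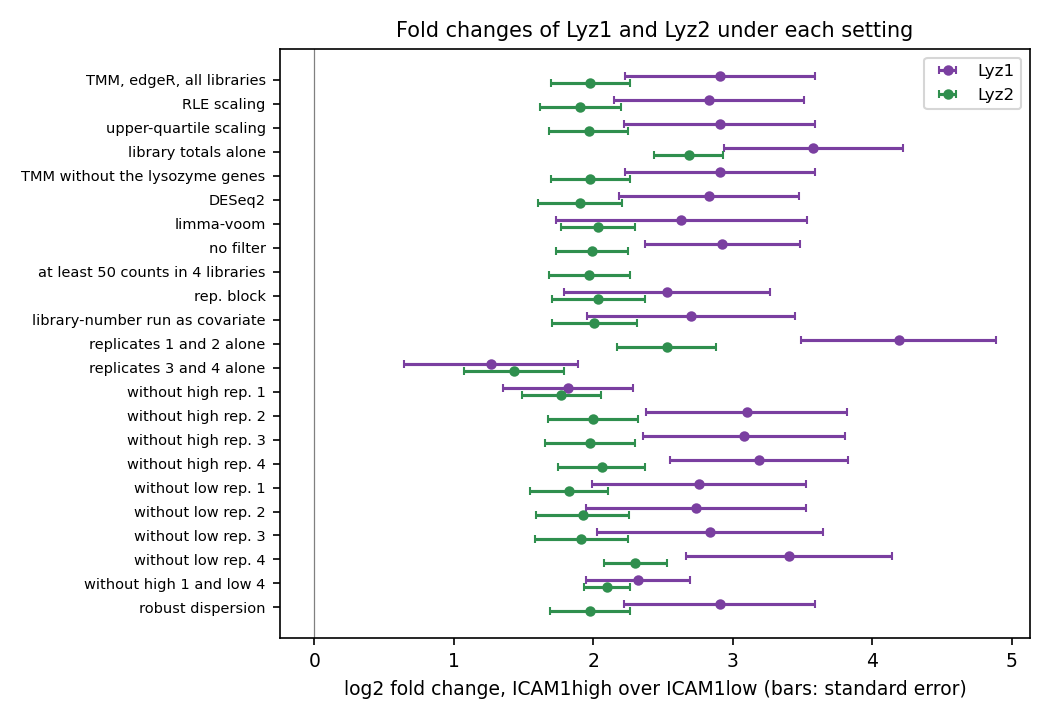
Log2 fold change (ICAM1high over ICAM1low) of Lyz1 and Lyz2 with its standard error under each way of processing the counts; Lyz1 has no point where at least 50 counts were required in 4 libraries, because it did not pass that filter. Lyz2 lies between 1.43 and 2.68, whereas Lyz1 lies between 1.27 and 4.19.

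The other genes of the family gave almost no reads. Of the 9 lysozyme-like, goose-type lysozyme and lactalbumin genes besides Lyz1 and Lyz2, 6 had 0 counts in all 8 libraries, which allows a level of up to 0.123 to 0.229 CPM per library (3 counts). Among these 6 was 9530003J23Rik, a lysozyme-like gene 38627 bases from Lyz2. Lyzl4, a lysozyme-like gene, had 7, 26, 12 and 11 counts in ICAM1high replicates 1 to 4 and 1, 3, 0 and 5 counts in ICAM1low replicates 1 to 4. Lalba, which encodes the milk protein alpha-lactalbumin, had 3, 8, 0 and 3 counts in ICAM1high and 6, 15, 1 and 22 counts in ICAM1low, and the sperm gene Spaca5 had 2 counts in 1 ICAM1high library. None of these 3 passed the filter, and no test was made. Of 9 Paneth cell markers, 7 were at 0 in all libraries, among them the 4 listed alpha-defensins. Itln1, an intelectin, was the only tested one, at 4.33 CPM in ICAM1high and 6.62 CPM in ICAM1low.

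Macrophage markers were higher in the same ICAM1high libraries. Of 20 macrophage and monocyte markers, 17 rose and 1 fell (edgeR quasi-likelihood test, adjusted p under 0.05 over all genes), where 22.6% of the 14051 tested genes rose, 19.6% fell and 42.1% did either. Their median log2 fold change was 3.94, against 0.08 over all tested genes. Apoe, an apolipoprotein of lipid-laden macrophages, was at 7555 ± 1673 CPM in ICAM1high and 408 ± 86.7 CPM in ICAM1low (SD, n = 4 each), a log2 fold change of 4.21 (adjusted p = 1.58e-06). Adgre1, which encodes F4/80, the selenium carrier Selenop and the adhesion molecule Vcam1 changed by 3.60, 3.82 and 4.28. The log2 fold change of Lyz2 was below that of 16 of the 20 markers, and that of Lyz1 below 15. Cd14, the lipopolysaccharide co-receptor, fell, with a log2 fold change of -1.72 (adjusted p = 0.000147). No marker was at 0. The summed level of the list was 16178 to 24653 CPM in ICAM1high and 13667 to 23526 CPM in ICAM1low, and 11148 to 18170 CPM in ICAM1high and 1271 to 1939 CPM in ICAM1low without Cd14. The part of macrophage transcripts in the lysozyme difference was not tested.

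Neutrophil markers moved the opposite way to Lyz2. Of 18 neutrophil markers 18 fell, at a median of -2.33 (log2) and a summed level of 18061 to 25159 CPM in ICAM1high and 69180 to 115371 CPM in ICAM1low. Over all tested genes 19.6% fell with TMM scaling. Under library totals alone 17 of the markers fell, where 5.97% of all tested genes did. Padi4, the enzyme that citrullinates histones, was at -2.58 (adjusted p = 6.56e-06), and Mxd1, a MYC antagonist of mature granulocytes, at -1.81 (adjusted p = 1.87e-05). Hdc, Trem1 and Csf3r were at -2.09, -1.88 and -1.47.

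Markers of other cell types were low. Beside the counts below, 22.6% of all tested genes rose and 19.6% fell with TMM scaling. Of 8 epithelial tumour cell markers 6 were tested, of which 4 fell (Epcam, Esrp1, Krt8 and Krt18) and 0 rose. The list summed to 120 to 170 CPM in ICAM1high and 275 to 479 CPM in ICAM1low. Dendritic cell markers summed to 19.0 to 32.1 CPM in ICAM1high and 25.2 to 31.3 CPM in ICAM1low. Of these 9 markers 6 were tested, of which 0 rose and 1, Fscn1, fell. Of 10 lymphocyte markers 3 were tested, of which the B cell gene Cd79b rose and the T cell gene Cd3d fell. The list summed to 10.01 to 38.2 CPM in ICAM1high and 13.5 to 23.3 CPM in ICAM1low. Of 9 fibroblast and endothelial markers 8 were tested, of which 3 rose (Col1a2, Col3a1 and Kdr). The list summed to 82.8 to 153 CPM in ICAM1high and 55.2 to 80.2 CPM in ICAM1low. Of 9 eosinophil, basophil and mast cell markers only 2 were tested, and these 2 fell (Ccr3 and Kit). The list summed to 7.12 to 13.6 CPM in ICAM1high and 20.7 to 23.8 CPM in ICAM1low. Under library totals alone Fscn1, Esrp1, Cd3d and Kit did not pass. Of the 6 tested dendritic cell markers 3 rose there, Cd209a (2.71, adjusted p = 0.0154) and Itgae (1.15, adjusted p = 0.00397) among them. Of the 8 tested fibroblast and endothelial markers 6 rose, Pdgfrb (1.47, adjusted p = 0.00604) among them. Over all tested genes 48.5% rose and 5.97% fell under library totals alone, so the dendritic share was near that of all genes. Col3a1 passed in 2 and Kit in 1 of the 8 sets that left out a library.

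**Figure D4:**
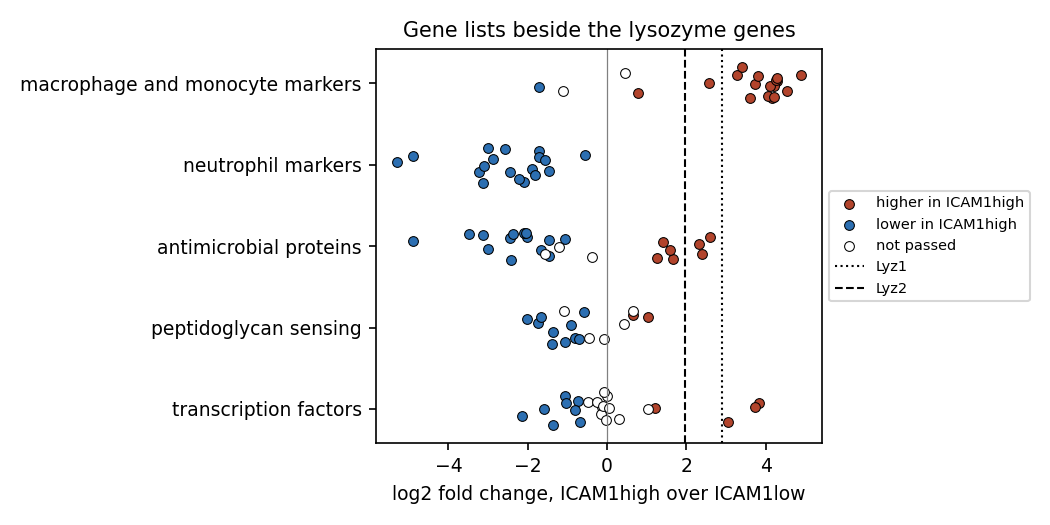
Log2 fold change (ICAM1high over ICAM1low) of each tested gene of 5 lists, one point per gene, filled by its call, with vertical lines at Lyz1 (2.91) and Lyz2 (1.98). Macrophage markers lie mostly to the right of both lines, and all 18 neutrophil markers lie below 0 with TMM scaling.

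Other antimicrobial genes of myeloid cells moved in both directions. Of 28 such genes 24 were tested, of which 14 fell, 7 rose and 3 did not pass, at a median log2 fold change of -1.51. Over all tested genes 19.6% fell and 22.6% rose. The calprotectin subunit S100a9 was at 2392 ± 749 CPM in ICAM1high and 19179 ± 11381 CPM in ICAM1low (SD, n = 4 each), a log2 fold change of -3.0 (adjusted p = 0.000235). Acod1, which makes the antibacterial metabolite itaconate, was at 2291 ± 428 CPM in ICAM1high and 9511 ± 1494 CPM in ICAM1low (SD, n = 4 each), a change of -2.05 (adjusted p = 3.72e-05). Ctss, a lysosomal cysteine protease, was at 1144 ± 321 CPM in ICAM1high and 189 ± 38.6 CPM in ICAM1low, a log2 fold change of 2.60 (adjusted p = 2.42e-05). Cybb, the gp91phox subunit of the superoxide-producing NADPH oxidase, changed by 2.40 (adjusted p = 1.41e-05). Mpeg1, the pore-forming perforin-2 of macrophages, was at 1454 ± 333 CPM in ICAM1high and 461 ± 126 CPM in ICAM1low and changed by 1.66 (adjusted p = 0.000458). The secreted ribonucleases Rnase4 and Ang changed by 1.60 and 1.41, though the genes overlap on the same strand and their reads can be hard to tell apart. Cst3, the secreted protease inhibitor cystatin C, changed by 1.27. Ear2, an eosinophil-associated ribonuclease, changed by 2.33 (adjusted p = 0.0482) at 1.56 ± 1.25 CPM in ICAM1high and 0.313 ± 0.225 CPM in ICAM1low, and did not pass when any single library was left out. Of the primary granule genes, Prtn3, which encodes proteinase 3, fell, with a log2 fold change of -1.46 (adjusted p = 0.00479) from 138 counts over the ICAM1high libraries and 295 over the ICAM1low libraries. Mpo, Elane, Ctsg and Bpi, which did not pass the filter, had 15, 3, 1 and 0 counts over the ICAM1high libraries and 16, 3, 0 and 2 counts over the ICAM1low libraries.

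Genes that bind, carry or sense peptidoglycan, the substrate of lysozyme, gave counts that depended on the scaling. Of 20 such genes 17 were tested: 10 fell and 2 rose with TMM scaling, whereas under library totals alone 5 fell and 5 rose. Over all tested genes 19.6% fell and 22.6% rose with TMM scaling, and 5.97% fell and 48.5% rose under library totals alone. The median log2 fold change was -0.80. Slc15a3, a lysosomal transporter of muramyl dipeptide, was at 487 ± 70.1 CPM in ICAM1high and 1624 ± 247 CPM in ICAM1low (SD, n = 4 each), a change of -1.74 (adjusted p = 4.64e-05). Tlr2, a receptor for bacterial lipoproteins, and its partners Tlr1 and Tlr6 changed by -1.38, -1.67 and -1.35 (adjusted p = 0.000141, 3.84e-05 and 9.90e-05), and all 3 also fell under library totals alone. Pglyrp4, a peptidoglycan recognition protein, was at -0.91 (adjusted p = 0.00440) but at -0.23 under library totals alone, where it did not pass (adjusted p = 0.359). Nagk, a kinase of N-acetylglucosamine that also acts on muramyl dipeptide, and Ripk2, the adaptor kinase of the NOD receptors, rose by 1.04 (adjusted p = 0.0271) and 0.66 (adjusted p = 0.0211). Nagk passed in 2 of the 8 sets that left out a library: it did not pass without ICAM1high replicate 1, 2 or 3 or ICAM1low replicate 1, 2 or 3, with 0.80 to 1.38 over all sets. Ripk2 passed in 6 of them and not without ICAM1high replicate 1 or 2, with 0.57 to 0.75 over all sets.

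Transcription factors that have been studied at lysozyme genes or in the myeloid cells that make lysozyme gave counts that depended on the scaling. Of 24 such factors 23 were tested: 4 rose and 8 fell with TMM scaling, with a median of -0.12, whereas under library totals alone 10 rose and 3 fell. Over all tested genes 22.6% rose and 19.6% fell with TMM scaling, and 48.5% rose and 5.97% fell under library totals alone, so the share that rose under library totals was near that of all genes. Among those that rose were Irf8, a factor of monocyte fate, at 3.84 (adjusted p = 1.28e-06), Cebpa, a C/EBP factor of early myeloid cells, at 3.04 (adjusted p = 3.60e-06), and Klf4, a factor of monocyte maturation, at 1.21 (adjusted p = 0.0125). Cebpa was at 122 ± 17.5 CPM in ICAM1high and 14.8 ± 2.83 CPM in ICAM1low (SD, n = 4 each). Ets2, an ETS factor, changed by -1.36 (adjusted p = 9.62e-05). Nfe2l2, the oxidative stress factor NRF2, changed by -1.03 (adjusted p = 0.000258) and did not pass under library totals alone, at -0.34 (adjusted p = 0.0619). Named for the motifs above, after their values were seen, Cebpb fell, at -2.14 (adjusted p = 0.000366), and Spi1, which encodes PU.1, fell, at -1.06 (adjusted p = 0.00717), but did not pass under library totals alone, at -0.37 (adjusted p = 0.157). Runx1 was at -0.12 (adjusted p = 0.535) with TMM scaling, and at 0.56 (adjusted p = 0.0128) under library totals alone.

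Calls among the chromosomal neighbours depended on the scaling. Within 500 kb of the lysozyme genes the table lists 30 other genes, of which 10 were tested and 12 had no count in any library. Of the 10, 2 rose, 3 fell and 5 did not pass with TMM scaling, near the shares over all tested genes (22.6% and 19.6%). Under library totals alone 5 rose (Cct2, Nup107, Cpsf6, Slc35e3 and 4933412E12Rik) and 0 fell, where 48.5% of all tested genes rose and 5.97% fell. The nearest tested ones were Yeats4, a chromatin reader 52823 bases from Lyz2, at -0.74 (adjusted p = 0.0753), and Cpsf6, a factor of mRNA cleavage 62351 bases from Lyz2, at 0.34 (adjusted p = 0.0865). The chaperonin subunit Cct2 rose by 0.77 and the nuclear pore gene Nup107 by 0.81. Rab3ip, an exchange factor of Rab GTPases, was at -0.86, and the p53 antagonist Mdm2 at -0.51 with TMM scaling but at 0.17 under library totals alone. Cpm, a carboxypeptidase, was at -1.46 (adjusted p = 0.0311) and passed in 3 of the 8 sets that left out a library, failing without ICAM1high replicate 2, 3 or 4 or ICAM1low replicate 1 or 3. The non-coding 4933412E12Rik, Frs2 and Slc35e3 were at 0.33, -0.20 and 0.44. Rab3ip overlaps 4933412E12Rik, which lies on the opposite strand, and the sources do not state whether counting used strand. Under library totals alone Rab3ip was at -0.17 and did not pass (adjusted p = 0.527).

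Across the 8 libraries, the gene with the pattern most like Lyz2 was Lgals1, galectin 1. Likeness was the root mean square difference of log2 CPM from Lyz2 after each gene was centred on its own mean, over the 4072 other genes whose average log2 CPM reached 5. Lgals1 was at 0.14, followed by Anxa5, annexin A5, at 0.23, the tetraspanin Cd81 at 0.26, the lysosomal phospholipase D family member Pld3 at 0.27, the inhibitory collagen receptor Lair1 at 0.28 and the membrane protein Tmem176a at 0.28. Lgals1 was at 148 ± 54.2 CPM in ICAM1high and 36.9 ± 13.7 CPM in ICAM1low (SD, n = 4 each). Tmem176a overlaps Tmem176b, which lies on the opposite strand, with 11691 counts against 19921. Most of each profile is the difference between the fractions, so the measure describes these libraries only. Lyz1, whose own average log2 CPM was below 5, ranked 121 by likeness to Lyz2, at 0.65. For Lyz1 the closest were H2-Eb1 and H2-DMa, genes of MHC class II presentation, Lgals1, Cd81, Ifi30, a lysosomal thiol reductase, and Ctss, at 0.58 to 0.63, with Lyz2 at rank 8. Without ICAM1high replicate 1 and ICAM1low replicate 4, 3 of the 6 genes remained for Lyz2 (Cd81, Pld3 and Anxa5) and 0 of the 6 for Lyz1. Lgals1, Lair1 and Tmem176a were no longer among the 6 for Lyz2, so the first place of Lgals1 depended on those libraries. Lyz1 then ranked 26 for Lyz2, at 0.26.

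**Figure D5:**
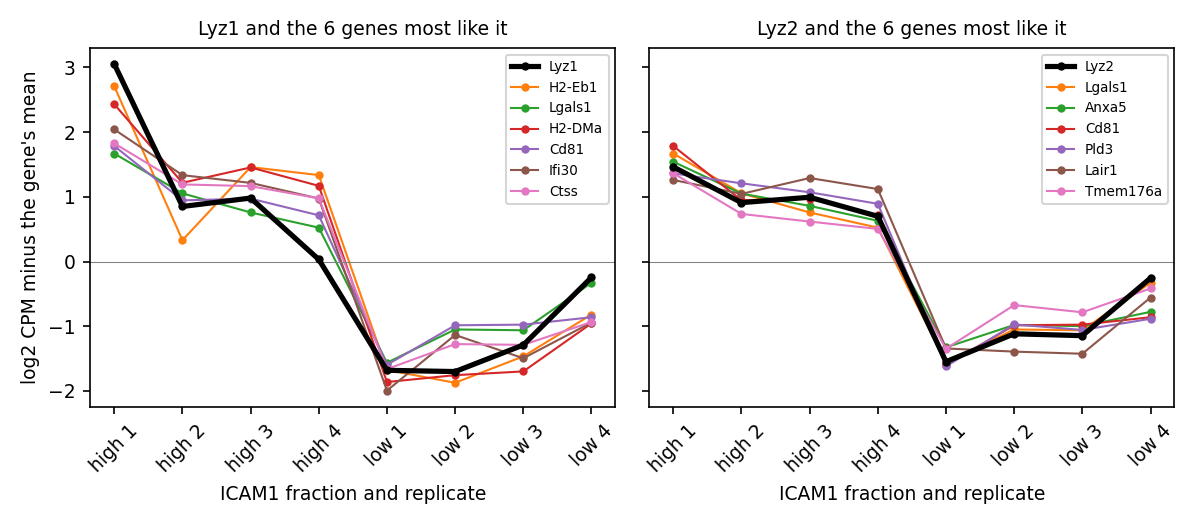
Log2 CPM minus the gene's own mean over 8 libraries, for Lyz1 (left, black) and Lyz2 (right, black) and the 6 genes most like each; lines join the libraries of a gene and replicates have no order. The genes shown with Lyz2 lie within 0.28 of it (root mean square), those shown with Lyz1 within 0.63.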

How the data were processed

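One table was used, in which the authors deposited raw read counts of every gene, whole numbers without normalization, beside its position, biotype and length, which gave levels per kilobase. HISAT2 and mm10 are named in the submitters' processing notes, which give neither versions nor roles; the counter, annotation release, strand setting and read length were not given in the sources used here. The genes, the lists and the tests were chosen with earlier results of these data known.

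Genes passing filterByExpr were scaled by TMM, and the groups were compared, unpaired, by edgeR 4.0.16 (R 4.3.3, quasi-likelihood), with Benjamini-Hochberg adjustment over 14051 genes and a threshold of 0.05. CPM use TMM-scaled totals, and log2 CPM a prior count of 2. Standard errors are the log2 fold change over the square root of F. Labels call the replicates biological, but separate mice are not stated, so p-values measure the spread between libraries. Replicates differed by more than counting error (chi-square per degree of freedom 12.6 to 221). Pairs with ICAM1high replicate 1 were at 91.1 to 105, against 12.6 to 20.8 among the other ICAM1high libraries. Pairs with ICAM1low replicate 4 were at 102 to 221, against 24.9 to 61.3 among the other ICAM1low libraries. The text names up to 5 members per list, by smallest p among those with an average log2 CPM of 1 or more. It also names members that passed against their list, tested neighbours, family genes with a count and the 6 genes most like each lysozyme gene. Of minor marker lists it names only members that passed under either scaling, and Itln1 as the only tested Paneth cell marker. A gene that this rule names is not reported here. Spi1, Cebpb, Runx1, Ly6g, Prtn3 and the filtered granule genes were added after their values were seen. Depth of 10328575 to 22751975 counts limits low values. Transcripts were aligned with Biopython 1.88. The test was checked on simulated counts. Alternatives were DESeq2 1.42.0, limma-voom (limma 3.58.1), other scalings and filters, a replicate block, the run of library numbers, and left-out libraries; the robust option and the Lyz1 share without ICAM1high replicate 1 were added after the data were seen.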

Additional observations from a re-analysis of the deposited data

Results flagged for a closer look

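In ICAM1high, replicate 1 stood far from the other 3 libraries in Lyz1, at 24.3 CPM against 2.90 to 5.70 CPM, and in the Lyz1 share of the lysozyme counts, at 0.669% against 0.136 to 0.218%. The same kind of gap was found in the named genes Nagk (25.3 CPM in the highest ICAM1high library against 15.4 to 15.9 CPM), Cd79b (9.997 CPM in the highest ICAM1high library against 3.36 to 3.83 CPM) and H2-DMa (189 CPM in the highest ICAM1high library against 78.8 to 96.0 CPM, and 18.0 CPM in the highest ICAM1low library against 9.54 to 10.7 CPM). Adgre1 was at 276 CPM in the lowest ICAM1high library against 345 to 350 CPM. In ICAM1low, the highest library had Kdr at 5.24 CPM against 2.42 to 2.88 CPM and Lair1 at 25.4 CPM against 13.9 to 14.7 CPM. Spi1 was at 710 CPM in the highest ICAM1high library against 400 to 401 CPM, and Cebpb at 2916 CPM in the highest ICAM1high library against 1468 to 1646 CPM. Spaca5 was at 0.0965 CPM in 1 ICAM1high library, from 2 counts, and at 0 in the others. These 12 gaps were found among 158 groups of 4 libraries, and chance flags about 1 in 20 independent groups. That rate does not apply to Lyz1, to H2-DMa and Lair1, which were named for a pattern like that of a lysozyme gene, or to Spaca5. Nor does it apply to Spi1 and Cebpb, which were named after their values were seen. All groups come from the same 8 libraries and are not independent.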

How the results depend on the processing

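Both lysozyme genes were higher in ICAM1high under every alternative that gave a value; with at least 50 counts required in 4 libraries Lyz1 gave none. Under library totals alone the log2 fold change of Lyz2 was 2.68, 6818 genes rose and 839 fell (3172 and 2748 with TMM scaling), peptidoglycan genes stood at 5 higher and 5 lower, and transcription factors at 10 higher and 3 lower; Mdm2 turned to 0.17 and Runx1 to 0.56. In replicates 1 and 2 alone Lyz1 was at 4.19, Lyz2 at 2.53 and their ratio at 1.66, with 1708 genes higher and 1416 lower, 1 peptidoglycan gene higher and 5 lower, and 4 transcription factors lower. In replicates 3 and 4 alone these were 1.27, 1.43 and -0.16, with 1658 genes higher and 1604 lower, 4 antimicrobial and 0 peptidoglycan genes higher, and 2 macrophage markers lower. That last count was also 2 with DESeq2, without a filter and without ICAM1high replicate 1 and ICAM1low replicate 4. Without a filter 1 peptidoglycan gene was higher. Leaving out each library in turn gave 1.82 to 3.40 for Lyz1, 1.77 to 2.30 for Lyz2 and 0.050 to 1.13 for their ratio (0.93 with all), 2345 to 3403 genes higher and 2157 to 2927 lower, 1 to 2 macrophage markers lower and 0 to 3 peptidoglycan genes higher. The Lyz1 share in ICAM1high was 0.188% without replicate 1, 0.309% with it.

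ICAM1high and ICAM1low libraries of the same replicate also share a number in their library names, but the labels state no pairing. Deviations of same-numbered libraries from their group means correlated at -0.57, 0.21, 0.18 and -0.30, and 3 of 8 correlated best with their own number. The negative values belong to replicates 1 and 4, which hold ICAM1high replicate 1 and ICAM1low replicate 4, the libraries farthest from the rest of their groups. These correlations therefore cannot decide whether libraries were paired, and the main comparison was left unpaired. With a replicate block Lyz1 was at 2.53, Lyz2 at 2.04 and their ratio at 0.49, with 2263 genes higher and 1975 lower, 4 antimicrobial and 0 peptidoglycan genes higher. The cause of these shifts was not tested. Among single genes, 88 values no longer passed, 26 newly passed and 1484 kept their call. Lyz1, with 11 to 38 counts in ICAM1low, is limited by depth.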
